A study of Homo sapiens with 21 samples.

Results

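Small nucleolar RNA (snoRNA) host genes are transcribed by RNA polymerase II, and the snoRNAs they carry are cut out of their introns. The spliced exons of the hosts described here hold no long conserved reading frame, so these RNAs are classed as long noncoding RNAs. Box C/D snoRNAs guide 2′-O-methylation and box H/ACA snoRNAs guide pseudouridylation, mostly of ribosomal RNA. Many host transcripts start with a run of pyrimidines, as the mRNAs of ribosomal proteins do, and several are broken down by nonsense-mediated decay when ribosomes engage their short reading frames.

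The 10 host RNAs were *GAS5*, *SNHG1*, *SNHG5*, *SNHG6*, *SNHG7*, *SNHG8*, *SNHG12*, *SNHG15*, *SNHG16* and *ZFAS1*, chosen by name from the 28395 genes of the count table. RNA was measured in Hs578T, a wild-type human triple-negative breast cancer cell line, collected 8 h after treatment, in 21 polyA-selected libraries. The 7 groups of 3 replicates were DMSO (solvent), 0.1 μM THZ531, 3.16 μM lapatinib, 1.0 μM nilotinib, 0.1 μM THZ531 with lapatinib, 0.1 μM THZ531 with nilotinib, and 1.0 μM THZ531. THZ531 is a covalent inhibitor of the transcriptional kinases CDK12 and CDK13, which act on the tail of elongating RNA polymerase II. Lapatinib blocks EGFR and ERBB2, and nilotinib blocks ABL and related tyrosine kinases. The comparisons ask how each treatment changed expression and whether a combination differed from its parts and from the higher dose of THZ531. All groups come from 1 cell line, and the replicates were independent experiments per the study's methods.

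The libraries held 97612207 to 112229052 counts, and all 10 host RNAs passed the filter on low counts that left 16036 genes for testing. Their counts ranged from 216 in the lowest library for *SNHG12* to 15040 in the highest for *SNHG16*. *VIM* (6971 to 8910 CPM, the count divided by the library's total and rescaled) and *CD44* (1196 to 1598 CPM), which mark mesenchymal breast cancer lines, were high in every library. The estrogen receptor gene *ESR1* (9 to 59 counts) and the progesterone receptor gene *PGR* (0 to 4 counts) were near 0, and *ERBB2* had 2206 to 4866 counts.

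All 10 gene spans in RefSeq were short, with a median of 3880 bases and a range from 1062 (*SNHG8*) to 11083 (*ZFAS1*). The median was 27777 bases over the 15857 tested genes with a span in RefSeq. Of 37 snoRNA genes that lie within these spans on GRCh38, 11 are in *GAS5*, 9 in *SNHG1*, 4 in *SNHG12*, 3 each in *SNHG16* and *ZFAS1*, 2 each in *SNHG5* and *SNHG7*, and 1 each in *SNHG6*, *SNHG8* and *SNHG15*. For 35 of the 37, no exon of the canonical GENCODE v44 host transcript overlaps the snoRNA, which places them in introns of that transcript. The exceptions are *SNORA103* in *GAS5* and *SNORA9* in *SNHG15*. The lengths above hold for RefSeq spans only, since some canonical transcripts reach far beyond them. For *SNHG16* that transcript covers bases 76557775 to 76670985, against 76557764 to 76565348 in RefSeq. For *SNHG5* it covers 85650491 to 85678748, against 85677007 to 85678733, and for *ZFAS1* 49278642 to 49299600, against 49278178 to 49289260.

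The starts of the host transcripts are shown because pyrimidine runs and TATA motifs there are shared features that had no part in the choice of the 10 genes. Promoter sequences from RefSeq (GRCh38.p14) were matched for 8 of the 10, not for *SNHG6* and *SNHG15*. Each line gives 80 bases of the transcript strand, 50 before the start used in the RefSeq promoter table and 30 from it on. For *SNHG12* and *ZFAS1* that start lies inside the RefSeq gene span, downstream of its first base, and for the other 6 it is the first base of the span. Capitals mark TATAA where all of it lies 45 to 20 bases before the start. They also mark a run of at least 5 C or T bases that reaches within 3 bases of the start.
SNHG5 (chr6:85678704-85678783, minus strand): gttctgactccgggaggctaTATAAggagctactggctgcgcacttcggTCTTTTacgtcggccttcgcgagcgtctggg
SNHG7 (chr9:136728155-136728234, minus strand): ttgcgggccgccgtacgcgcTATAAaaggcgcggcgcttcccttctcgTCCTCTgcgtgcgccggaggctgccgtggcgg
SNHG8 (chr4:118278712-118278791, plus strand): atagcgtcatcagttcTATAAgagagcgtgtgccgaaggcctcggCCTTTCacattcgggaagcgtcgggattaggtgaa
SNHG12 (chr1:28581844-28581923, minus strand): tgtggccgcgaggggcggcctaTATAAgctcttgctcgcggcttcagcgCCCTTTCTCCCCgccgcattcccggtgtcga
ZFAS1 (chr20:49278592-49278671, plus strand): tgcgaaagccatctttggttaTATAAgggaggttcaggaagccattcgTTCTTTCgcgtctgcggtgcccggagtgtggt
SNHG1 (chr11:62855856-62855935, minus strand): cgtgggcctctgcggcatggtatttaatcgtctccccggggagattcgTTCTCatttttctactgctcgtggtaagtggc
SNHG16 (chr17:76557714-76557793, plus strand): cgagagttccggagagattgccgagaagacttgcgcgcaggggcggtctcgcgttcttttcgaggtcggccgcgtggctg
GAS5 (chr1:173869016-173869095, minus strand): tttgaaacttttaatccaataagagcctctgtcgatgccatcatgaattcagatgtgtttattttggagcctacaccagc

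TATAA lay in that window in 5 of the 8 host promoters, with its first base at -30 (*SNHG5* and *SNHG7*), -34 (*SNHG8*), -28 (*SNHG12*) and -29 (*ZFAS1*). The same window held it in 4.01% of all 35116 promoters of the table and in 3.04% of the 17676 promoters of tested genes. On either strand of the whole 300-base promoters, TATAA was present in 6 of the 8, against 20.4% of all promoters. A pyrimidine run as defined above was found in 6 of the 8, with *GAS5* and *SNHG16* lacking one, against 27.2% of all promoters and 76.6% of the 77 promoters of tested ribosomal protein genes. *GAS5* and *SNHG16* have neither feature in this window. For *GAS5* the RefSeq start, at base 173869045, lies upstream of base 173867989, at which the canonical GENCODE v44 transcript begins. The window shown is therefore not that of the canonical transcript, whose start was not examined. A match is a description of these letters and not evidence of a bound factor.

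None of the 10 host RNAs passed the test under any single agent at its lower dose. With 0.1 μM THZ531, the adjusted p-values (edgeR's quasi-likelihood test, Benjamini-Hochberg over all tested genes) lay between 0.271 and 0.916, where 6.09% of all tested genes were called in either direction. The 95% intervals of the 10 log2 fold changes (FC) against DMSO all lay between -0.38 and 0.41. At an unadjusted p under 0.05, 0 of the 10 were counted (19.2% of all tested genes), and DESeq2's Wald test also called 0.

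Lapatinib and nilotinib alone gave a similar picture, with 0 host RNAs called by edgeR or by DESeq2 and backgrounds of 0.312% and 0.343%. At an unadjusted p under 0.05, 2 of 10 were counted with each inhibitor, *GAS5* and *SNHG15* both times, where 7.16% of all tested genes were with lapatinib and 9.67% with nilotinib. *GAS5*, whose RNA is known to accumulate in growth-arrested cells, measured 20.1, 20.5 and 22.7 CPM in DMSO, 27.6, 26.01 and 24.1 CPM with lapatinib, and 28.7, 24.6 and 22.6 CPM with nilotinib. All lapatinib libraries lay above all DMSO libraries, and the lowest nilotinib library overlapped with DMSO. The log2 FC of *GAS5* was 0.30 ± 0.10 (SE, adjusted p = 0.379) with lapatinib and 0.26 ± 0.10 (adjusted p = 0.319) with nilotinib, and neither passed the threshold.

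The 3 treatments that combined a kinase inhibitor with THZ531, or raised its dose, gave a different picture. Against DMSO and with TMM scaling, 9 of the 10 host RNAs rose and 1, *SNHG16*, fell with lapatinib + THZ531, where 34.3% of all tested genes rose and 37.8% fell. With nilotinib + THZ531, 6 rose and *SNHG16* fell (33.7% and 37.3% of all tested genes), and with 1.0 μM THZ531, 7 rose and *SNHG16* fell (33.1% and 36.8%). The median log2 FC of the 10 was 0.83, 0.55 and 0.51 in these treatments, against -0.01 over all tested genes in each. These 3 comparisons share the DMSO libraries. In lapatinib + THZ531, 9 host RNAs had all 3 libraries above all 3 of DMSO and 1 had all 3 below (34.8% and 38.6% of all tested genes). The counts were 7 and 1 with nilotinib + THZ531 (34.6% and 38.3%) and 8 and 1 with 1.0 μM THZ531 (34.4% and 37.8%). Scaled instead to the mitochondrially encoded mRNAs, as described after the single genes, 1, 0 and 1 host RNAs rose and 2, 4 and 3 fell. The median log2 FC of all tested genes was then -0.69, -0.63 and -0.55, so the shares above are no background for these counts. Shares of all tested genes called are given for TMM scaling only.

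**Figure D1:**
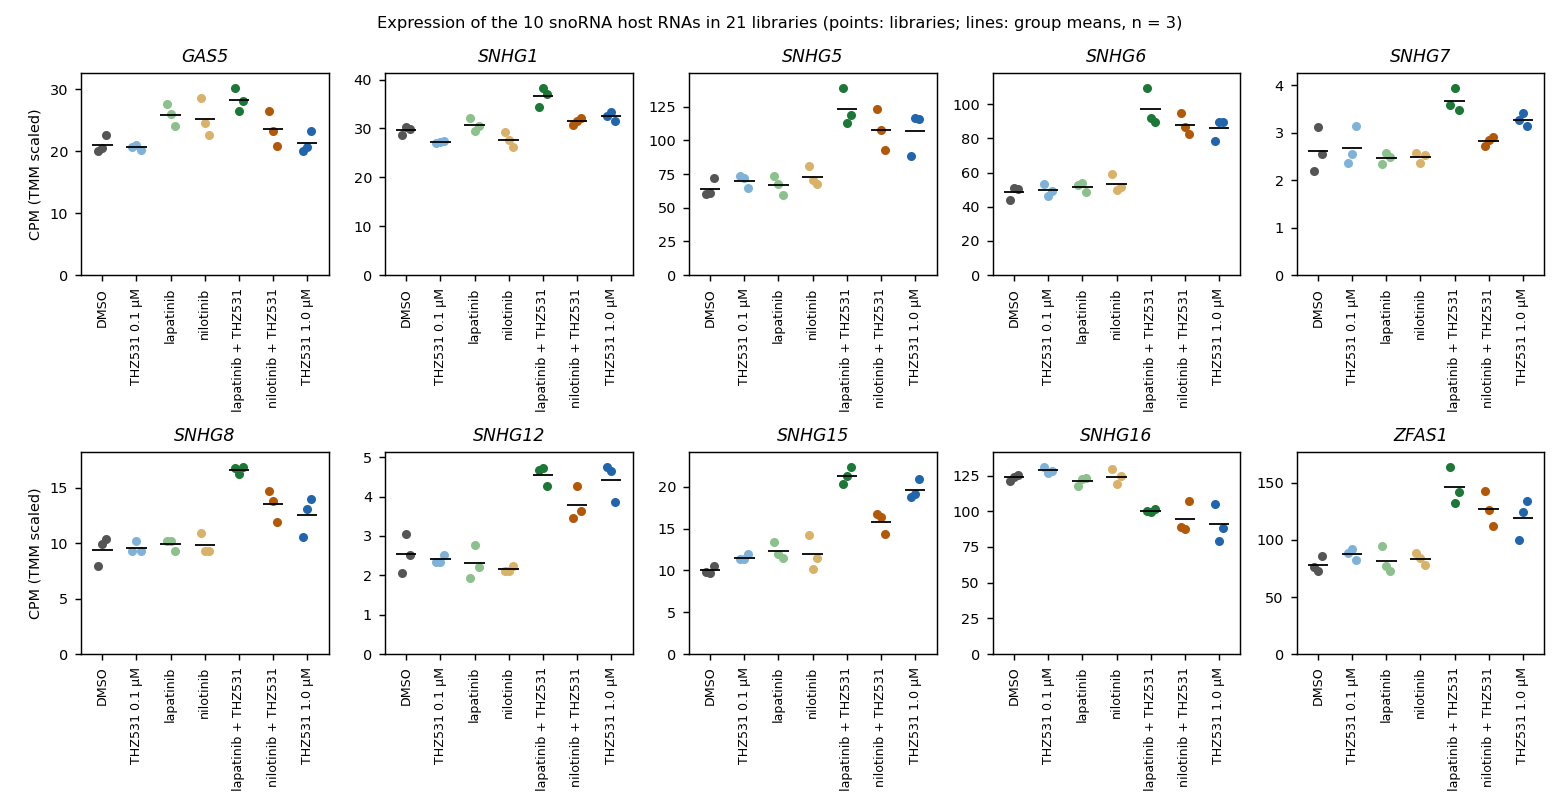
Expression of each host RNA in the 21 libraries, in CPM after TMM scaling, with a linear axis from 0 for each gene. Points are libraries and lines are means of 3 replicates. In *SNHG5*, *SNHG6*, *SNHG8*, *SNHG12*, *SNHG15* and *ZFAS1* the 9 libraries of both combinations and of 1.0 μM THZ531 lie above all DMSO libraries on this scaling (scaled to mitochondrial mRNAs, the estimate was below 0 for *SNHG8* with nilotinib + THZ531 and 1.0 μM THZ531 and for *SNHG12* with nilotinib + THZ531), and in *SNHG16* they lie below them.

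*SNHG15* had the largest rise of the 10 with lapatinib + THZ531. It measured 9.84, 9.72 and 10.5 CPM in DMSO and 20.3, 21.3 and 22.4 CPM with lapatinib + THZ531. With nilotinib + THZ531 it measured 16.7, 16.4 and 14.3 CPM, and with 1.0 μM THZ531 18.7, 19.2 and 20.9 CPM. No library of these 3 groups overlapped with DMSO, and the nilotinib combination lay below both other groups. The log2 FC against DMSO was 1.09 ± 0.10 (adjusted p = 6.11e-09) with lapatinib + THZ531, 0.66 ± 0.10 (6.76e-06) with nilotinib + THZ531 and 0.97 ± 0.10 (4.31e-08) with 1.0 μM THZ531. *SNHG15* hosts *SNORA9*, for which the table lists 0 counts in every library.

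*SNHG6*, which hosts *SNORD87*, measured 43.97, 50.9 and 50.5 CPM in DMSO. The 3 libraries of lapatinib + THZ531 gave 109, 92.1 and 89.7 CPM, those of nilotinib + THZ531 94.8, 86.4 and 82.8 CPM, and those of 1.0 μM THZ531 78.3, 89.4 and 89.6 CPM. All 9 treated libraries lay above all DMSO libraries, and those of lapatinib + THZ531 also lay above those of 1.0 μM THZ531. The log2 FC was 1.00 ± 0.09 (adjusted p = 7.79e-09), 0.86 ± 0.09 (7.37e-08) and 0.82 ± 0.09 (1.55e-07) in that order.

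*ZFAS1* carries 3 related box C/D snoRNAs, *SNORD12C*, *SNORD12B* and *SNORD12*. Its level was 76.1, 73.0 and 86.3 CPM in DMSO, 164, 133 and 142 CPM with lapatinib + THZ531, 143, 126 and 112 CPM with nilotinib + THZ531, and 99.8, 124 and 134 CPM with 1.0 μM THZ531. The treated libraries were all above DMSO. The log2 FC fell in size in the same order of treatments, at 0.90 ± 0.12 (adjusted p = 1.01e-06), 0.69 ± 0.12 (2.59e-05) and 0.61 ± 0.12 (0.000123).

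*SNHG5*, host of *SNORD50A* and *SNORD50B*, measured 60.2, 60.9 and 71.8 CPM in DMSO and 139, 113 and 119 CPM with lapatinib + THZ531. It measured 123, 107 and 93.1 CPM with nilotinib + THZ531 and 88.5, 117 and 116 CPM with 1.0 μM THZ531. The treated groups did not overlap with DMSO but overlapped with each other. Against DMSO, the log2 FC was 0.94 ± 0.12 (adjusted p = 8.53e-07), 0.75 ± 0.12 (1.76e-05) and 0.74 ± 0.12 (2.15e-05).

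*SNHG8*, host of *SNORA24*, rose most evenly among replicates with lapatinib + THZ531. It measured 7.96, 9.88 and 10.4 CPM in DMSO, 16.7, 16.2 and 16.8 CPM with lapatinib + THZ531, 14.7, 13.8 and 11.9 CPM with nilotinib + THZ531, and 10.6, 13.1 and 14.0 CPM with 1.0 μM THZ531. The lapatinib combination lay above both other treated groups, and the lowest library of 1.0 μM THZ531 was only just above the highest of DMSO. The log2 FC was 0.82 ± 0.11 (adjusted p = 1.69e-06), 0.52 ± 0.11 (0.000354) and 0.41 ± 0.11 (0.00267).

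*SNHG12* was one of the 2 host RNAs with the fewest counts (216 to 452 per library), and it hosts *SNORD99*, *SNORA61*, *SNORA44* and *SNORA16A*. It measured 2.05, 3.05 and 2.51 CPM in DMSO, 4.67, 4.72 and 4.26 CPM with lapatinib + THZ531, 3.46, 4.26 and 3.64 CPM with nilotinib + THZ531 and 4.75, 4.65 and 3.87 CPM with 1.0 μM THZ531. All treated libraries again exceeded DMSO. Against DMSO, the log2 FC was 0.84 ± 0.14 (adjusted p = 2.22e-05), 0.58 ± 0.14 (0.00117) and 0.80 ± 0.14 (4.33e-05).

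*SNHG7*, *SNHG1* and *GAS5* changed less. *SNHG7*, with 251 to 362 counts per library, measured 2.20, 3.12 and 2.54 CPM in DMSO and 3.58, 3.94 and 3.48 CPM with lapatinib + THZ531, a log2 FC of 0.48 ± 0.12 (adjusted p = 0.00147). With nilotinib + THZ531 it measured 2.71, 2.85 and 2.90 CPM, within the DMSO range (0.11 ± 0.12, adjusted p = 0.451). With 1.0 μM THZ531 it measured 3.26, 3.41 and 3.14 CPM, just above DMSO (0.32 ± 0.12, adjusted p = 0.0254), and that call was lost without DMSO replicate 1 (log2 FC 0.21, adjusted p = 0.153), without DMSO replicate 3 (adjusted p = 0.0697) and without the second 1.0 μM THZ531 replicate (adjusted p = 0.0711). It was also lost with no filter (adjusted p = 0.0533), with only the groups compared (0.0744) and with library size alone (log2 FC 0.063, adjusted p = 0.667).

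*SNHG1*, host of *SNORD22* and of *SNORD25* to *SNORD31*, measured 28.8, 30.2 and 29.8 CPM in DMSO and 34.4, 38.2 and 37.1 CPM with lapatinib + THZ531 (log2 FC 0.31 ± 0.06, adjusted p = 0.000176). The levels were 30.6, 31.5 and 32.2 CPM with nilotinib + THZ531 and 32.6, 33.4 and 31.6 CPM with 1.0 μM THZ531. Both groups were above DMSO in every library but did not pass the test (0.09 ± 0.06 with adjusted p = 0.207, and 0.14 ± 0.06 with adjusted p = 0.0552). With 1.0 μM THZ531, *SNHG1* passed by DESeq2's Wald test (log2 FC 0.17, adjusted p = 0.00726), and in edgeR with RLE scaling (0.0221), upper-quartile scaling (8.58e-05), at least 10 counts in every library (0.0216), halved counts (0.0312), and without lapatinib + THZ531 replicate 1 (0.0459) or nilotinib replicate 1 (0.0411).

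*GAS5* measured 30.2, 26.6 and 28.1 CPM with lapatinib + THZ531, above all DMSO libraries (0.42 ± 0.10, adjusted p = 0.000665). With nilotinib + THZ531 it measured 26.5, 23.4 and 20.8 CPM and with 1.0 μM THZ531 20.03, 20.7 and 23.4 CPM, and both groups overlapped with DMSO. The log2 FC was 0.16 ± 0.10 (adjusted p = 0.147) and 0.02 ± 0.10 (adjusted p = 0.867). The 95% interval for 1.0 μM THZ531 ran from -0.19 to 0.22.

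*SNHG16*, host of *SNORD1A*, *SNORD1B* and *SNORD1C*, was the member that fell. It measured 121, 124 and 125 CPM in DMSO, 100, 99.2 and 101 CPM with lapatinib + THZ531, 88.7, 87.5 and 107 CPM with nilotinib + THZ531 and 105, 79.3 and 88.0 CPM with 1.0 μM THZ531. Every library of these 3 groups lay below every DMSO library. Against DMSO, the log2 FC was -0.30 ± 0.08 (adjusted p = 0.0031), -0.39 ± 0.08 (0.000353) and -0.44 ± 0.08 (9.45e-05). The fall with lapatinib + THZ531 did not pass with upper-quartile scaling (-0.14, adjusted p = 0.104).

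The size of these changes depends on what the libraries are scaled to, because the treatments changed the expression of most genes. TMM scaling, used above, left the median log2 FC of all tested genes at -0.01. The 13 mitochondrially encoded mRNAs, which are made by another polymerase and not by RNA polymerase II, all rose under that scaling, with medians of 0.68, 0.60 and 0.58 for lapatinib + THZ531, nilotinib + THZ531 and 1.0 μM THZ531. Scaled to these mRNAs, the median of all tested genes shifted to -0.69, -0.63 and -0.55, and the median of the 10 host RNAs to 0.16, -0.06 and -0.01. In each of the 3 treatments, 9 of the 10 host RNAs were above the median of all tested genes, with *SNHG16* below it. A change of scaling shifts all genes of a comparison together. The position against that median is therefore set in advance and is no test of the scaling.

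Under that scaling the calls were 1 higher and 2 lower with lapatinib + THZ531, 0 higher and 4 lower with nilotinib + THZ531, and 1 higher and 3 lower with 1.0 μM THZ531. The called rise was *SNHG15* (log2 FC 0.40, adjusted p = 0.0154 with lapatinib + THZ531, and 0.43, adjusted p = 0.0107 with 1.0 μM THZ531). *SNHG16* fell in all 3, by 0.99, 1.02 and 1.00 on the log2 scale. *SNHG1* also fell in all 3 (-0.38, -0.53 and -0.41), *GAS5* fell with nilotinib + THZ531 and 1.0 μM THZ531 (-0.45 and -0.52), and *SNHG7* fell with nilotinib + THZ531 (-0.51). The direction for *GAS5*, *SNHG1* and *SNHG7* thus turned with the scaling in all 3 treatments, that for *SNHG8* with nilotinib + THZ531 and 1.0 μM THZ531 (-0.09 and -0.11), and that for *SNHG12* with nilotinib + THZ531 (-0.03). *SNHG5* (0.26, 0.13 and 0.21), *SNHG6* (0.33, 0.25 and 0.29) and *ZFAS1* (0.21, 0.08 and 0.08) stayed above 0, but like *SNHG8* and *SNHG12* they passed the test in neither direction. Library size alone shifted the median of all tested genes to -0.34, -0.31 and -0.27, and with it 6, 4 and 5 of the 10 host RNAs rose in the same order. Which scaling is closest to RNA per cell was not tested, and in bulk libraries fewer cells and less RNA per cell cannot be told apart.

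**Figure D2:**
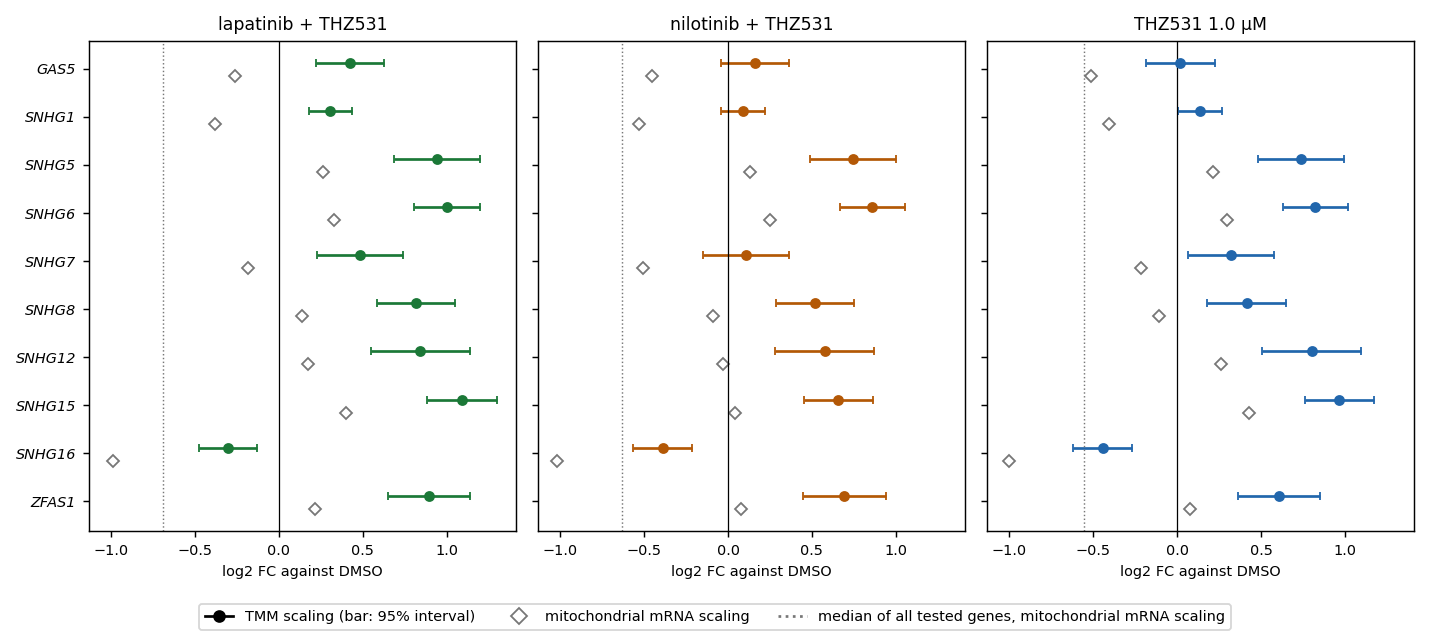
Log2 FC against DMSO for the 10 host RNAs in the 3 treatments. Filled points are edgeR estimates with TMM scaling and bars their 95% intervals, open diamonds are the same contrasts scaled to the 13 mitochondrially encoded mRNAs, and the dotted line is the median of all tested genes under that second scaling (-0.69, -0.63 and -0.55). Under the second scaling, points of 9 host RNAs lie to the right of the dotted line and *SNHG16* lies to the left. The scaling shifts all genes together, so it cannot alter these positions.

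The higher dose of THZ531 was compared with the lower dose, and each inhibitor was compared in the presence and absence of 0.1 μM THZ531. Against 0.1 μM THZ531, 8 of the 10 host RNAs were higher and *SNHG16* was lower at 1.0 μM (34.3% and 35.9% of all tested genes), with *SNHG12* changing most (0.88 ± 0.14, adjusted p = 1.57e-05). *GAS5* did not differ between the doses beyond its spread (0.05 ± 0.10, 95% interval -0.16 to 0.25). Lapatinib added to 0.1 μM THZ531 raised 9 and lowered *SNHG16* (35.0% and 36.1%), and nilotinib added to it raised 7 and lowered *SNHG16* (34.3% and 35.6%). Scaled to mitochondrial mRNAs, 0 were higher in any of these 3 comparisons and 2, 1 and 4 were lower. The median of all tested genes was then -0.50, -0.65 and -0.59.

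The interaction term subtracts the log2 FC of an inhibitor without THZ531 from its log2 FC with 0.1 μM THZ531, so a positive value means that the host RNA rose more when THZ531 was present. For lapatinib it was positive and passed the test for 8 host RNAs and was negative for *SNHG16* (28.2% and 32.0% of all tested genes). *SNHG12* had the largest term, 1.06 ± 0.20 (adjusted p = 0.000143), followed by *SNHG6* with 0.87 ± 0.13 (1.04e-05). *SNHG12* had measured 1.94, 2.76 and 2.21 CPM with lapatinib alone and 2.34, 2.35 and 2.52 CPM with 0.1 μM THZ531 alone, both overlapping with DMSO. *GAS5* was the member without a called term (0.16 ± 0.14, adjusted p = 0.344). Scaled to mitochondrial mRNAs, 0 host RNAs had a called positive term with either inhibitor, and *SNHG16* kept a called negative term with both. The median term of all tested genes was then -0.52 with lapatinib and -0.41 with nilotinib.

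For nilotinib the term passed the test for 6 host RNAs in the positive direction and for *SNHG16* in the negative (25.6% and 31.2%). The largest was again *SNHG12* (0.89 ± 0.20, adjusted p = 0.000857), while *SNHG15* (0.20 ± 0.14, adjusted p = 0.237), *SNHG7* (0.15 ± 0.17) and *GAS5* (-0.07 ± 0.14) did not pass. The count of 6 was not stable, since it dropped to 3 without any one of DMSO replicate 3, 0.1 μM THZ531 replicate 3, nilotinib replicate 3 or nilotinib + THZ531 replicate 1. *SNHG5*, *SNHG8* and *ZFAS1* were the calls lost each time, with adjusted p-values of 0.0372, 0.0276 and 0.0296 in all libraries.

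The combinations were also set against 1.0 μM THZ531. With lapatinib + THZ531, *GAS5* (0.40 ± 0.10, adjusted p = 0.00365), *SNHG8* (0.40 ± 0.11, adjusted p = 0.00893) and *SNHG1* (0.17 ± 0.06, adjusted p = 0.0452) were higher, so 3 of 10 against 12.8% of all tested genes, and 0 were lower against 16.1%. None differed (0 of 10) when scaled to mitochondrial mRNAs. With nilotinib + THZ531, *SNHG15* was lower than with 1.0 μM THZ531 (-0.31 ± 0.10, adjusted p = 0.026), where 13.0% of all tested genes were lower, and 0 were higher, where 11.2% were. That call was lost without nilotinib + THZ531 replicate 3 and without the third replicate of 1.0 μM THZ531, when 0 host RNAs passed. The 95% intervals for *SNHG5* (-0.05 to 0.46 with lapatinib, -0.25 to 0.26 with nilotinib) and *SNHG6* (-0.02 to 0.37 and -0.16 to 0.23) included 0.

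Between the 2 combinations, *SNHG15* was higher with lapatinib (0.43 ± 0.10, adjusted p = 0.0313), 1 of 10 against 0.730% of all tested genes, and 0 were lower (0.736%). That call was lost without lapatinib + THZ531 replicate 2 or 3 or any one of the nilotinib + THZ531 replicates, when 0 passed, while 2 passed without lapatinib + THZ531 replicate 1. Scaled to mitochondrial mRNAs, 0 passed in this comparison or between nilotinib + THZ531 and 1.0 μM THZ531. All 10 estimates had the same sign with TMM scaling, from 0.09 (*SNHG16*) to 0.43 (*SNHG15*). For 6 host RNAs all 3 lapatinib libraries lay above all 3 nilotinib libraries, where 7.58% of all tested genes did. The nearest libraries almost touched for *GAS5* (26.60 against 26.54 CPM) and *SNHG12* (4.264 against 4.257 CPM). Several host RNAs moved together in single libraries, so these counts are not of independent genes. At an unadjusted p under 0.05, 5 of the 10 were counted, against 12.5% of all tested genes.

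Several host RNAs were low or high together in the same libraries. In 1.0 μM THZ531 replicate 1, *SNHG5* (88.5 CPM), *SNHG6* (78.3), *SNHG8* (10.6), *SNHG15* (18.7), *ZFAS1* (99.8) and *GAS5* (20.03) were at their lowest of the 3 libraries, while *SNHG16* was at its highest (105). *SNHG12* was also at its highest there (4.75), and *SNHG1* (32.6) and *SNHG7* (3.26) lay in between. In nilotinib + THZ531 replicate 3 the same 6 RNAs were at their lowest and *SNHG16* was at its highest (107). *SNHG1* (32.2) and *SNHG7* (2.90) were at their highest in that library too, and *SNHG12* (3.64) lay in between. The share of all tested genes at their lowest in these libraries was not examined. When any one library was left out, between 6 and 8 host RNAs were higher with 1.0 μM THZ531 than with DMSO.

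Across the 7 group means, the members' profiles were close to their common mean (each centred and scaled on log2 CPM) for 8 of the 10, with a Pearson r from 0.92 (*SNHG12* and *SNHG1*) to 0.99 (*SNHG8*). Each member is itself part of that mean, which raises its r, and the share of all expressed genes with such an r is not given. The r was 0.52 for *GAS5* and -0.82 for *SNHG16*. The mean of *GAS5* was lowest with 0.1 μM THZ531 (20.7 ± 0.425 CPM, SD, n = 3), DMSO (21.1 ± 1.38) and 1.0 μM THZ531 (21.4 ± 1.76). Its mean was higher with both inhibitors alone, though neither difference from DMSO passed the test. The 5 genes outside the 10 whose group means were most like that mean profile, among 10903 expressed genes, were *NDUFC2* (r = 0.993), *RASL11A* (0.993), *SSBP1* (0.992), *ENSA* (0.989) and *PLAAT4* (0.984). *NDUFC2* encodes a subunit of mitochondrial complex I and *SSBP1* a mitochondrial DNA-binding protein, both made from nuclear genes, and *NDUFC2* rose from 31.0 CPM in DMSO to 61.4 CPM with lapatinib + THZ531. These correlations are over 7 means that share libraries and are given as a description.

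The snoRNA genes inside the hosts were measured apart from the hosts. Mature snoRNAs carry no polyA tail, so polyA-selected libraries record them poorly, and what kind of RNA gave the reads was not tested. Of the 37 snoRNA genes, 35 are in the count table and 25 passed the filter on low counts. With lapatinib + THZ531, 8 of the 25 rose, 1 fell and 16 did not pass, where 34.3% of all tested genes rose and 37.8% fell. The counts were 4, 3 and 18 with nilotinib + THZ531, where 33.7% of all tested genes rose and 37.3% fell. They were 8, 4 and 13 with 1.0 μM THZ531, where 33.1% rose and 36.8% fell. With 0.1 μM THZ531, lapatinib or nilotinib alone, 0 of 25 passed, where 6.09%, 0.312% and 0.343% of all tested genes did. With mitochondrial mRNA scaling, only *SNORD12B* rose, and 3, 6 and 6 of the 25 fell. The medians of the 25 were then -0.12, -0.37 and -0.36, where those of all tested genes were -0.69, -0.63 and -0.55. These genes carry few reads, and each of the 10 that were not tested had at most 16 counts in any library.

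The 3 snoRNAs within *ZFAS1* are shown because they hold *SNORD12B*, whose reads rose most of the 25 tested, and its 2 neighbours in the same host. Capitals mark box C (TGATGA), which with box D is bound by the core proteins, and box D (CTGA). They lie on the plus strand of GRCh38.
SNORD12C (chr20:49278945-49279023): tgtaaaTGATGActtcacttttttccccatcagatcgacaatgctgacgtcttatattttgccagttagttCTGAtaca
SNORD12B (chr20:49280313-49280415): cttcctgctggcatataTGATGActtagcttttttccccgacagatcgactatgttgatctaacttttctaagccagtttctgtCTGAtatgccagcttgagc
SNORD12 (chr20:49280683-49280772): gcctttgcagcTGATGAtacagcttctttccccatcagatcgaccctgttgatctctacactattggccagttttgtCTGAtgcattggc

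*SNORD12B* had 9, 27 and 22 counts in DMSO and 315, 229 and 272 counts with lapatinib + THZ531. Its counts were 291, 243 and 282 with nilotinib + THZ531 and 243, 215 and 208 with 1.0 μM THZ531, while 0.1 μM THZ531 (26, 29 and 18), lapatinib (26, 15 and 17) and nilotinib (16, 15 and 16) overlapped with DMSO. The log2 FC was 4.19 ± 0.26 (adjusted p = 2.04e-11), 4.17 ± 0.26 (2.34e-11) and 3.83 ± 0.26 (1.16e-10), far above the 0.90, 0.69 and 0.61 of *ZFAS1* itself. Scaled to mitochondrial mRNAs it was 3.52, 3.57 and 3.30. An exon overlaps *SNORD12B* in 1 of 14 GENCODE *ZFAS1* transcripts.

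*SNORD12* rose too (13, 12 and 7 counts in DMSO against 19, 42 and 23 with lapatinib + THZ531), with a log2 FC of 1.77 ± 0.49 (adjusted p = 0.0032), 1.25 ± 0.51 (0.0338) and 1.49 ± 0.50 (0.0119). *SNORD12C* had at most 11 counts in any library and was not tested.

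In *SNHG1*, *SNORD22* rose in all 3 treatments, from 0.234, 0.449 and 0.221 CPM in DMSO to 0.590, 0.930 and 0.735 CPM with lapatinib + THZ531 (1.32 ± 0.31, adjusted p = 0.000888), and *SNORD31* rose with lapatinib + THZ531 (1.14 ± 0.32) and 1.0 μM THZ531 (0.95 ± 0.33). The other 6 of its 8 tested snoRNAs passed in none of the 3. In *SNHG12*, *SNORA61* rose from 0.774, 1.16 and 1.11 CPM in DMSO to 1.70, 1.73 and 1.78 CPM with lapatinib + THZ531 (0.78 ± 0.16, adjusted p = 0.000187) and to 1.75, 1.89 and 1.45 CPM with 1.0 μM THZ531, and all 4 of its snoRNAs rose with 1.0 μM THZ531. *SNORD87* of *SNHG6* rose with lapatinib + THZ531 (1.00 ± 0.30, adjusted p = 0.00553).

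*GAS5* held snoRNAs that moved in both directions. *SNORD74* rose with lapatinib + THZ531 (0.93 ± 0.32, adjusted p = 0.0139) and nilotinib + THZ531 (0.75 ± 0.32), and *SNORD80* rose with lapatinib + THZ531 (0.34 ± 0.14, adjusted p = 0.0398) but had an estimate of -0.35 when scaled to mitochondrial mRNAs. *SNORD78* had 21, 16 and 9 counts in DMSO and only 1, 5 and 2 with lapatinib + THZ531, 4, 4 and 2 with nilotinib + THZ531 and 3, 2 and 0 with 1.0 μM THZ531, a fall in all 3 treatments (adjusted p = 0.00519, 0.0111 and 0.00106). *SNORD44* and *SNORD76* fell with nilotinib + THZ531 (-1.26 ± 0.44 and -0.61 ± 0.23) and 1.0 μM THZ531 (-1.09 ± 0.43 and -0.60 ± 0.23), and *SNORD77* fell with 1.0 μM THZ531 (-1.48 ± 0.47).

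The libraries were not stranded, so reads of a gene on the opposite strand cannot be told from those of a host it overlaps. *MCMDC2* overlaps *SNHG6* and rose by 2.86 ± 0.14 with lapatinib + THZ531 on the log2 scale, and *DIPK1B* overlaps the end of *SNHG7* and rose by 3.58 ± 0.27. *GAS5-AS1* at the end of *GAS5* rose by 2.79 ± 0.22, *ZBTB37* at its start fell by 1.17 on that scale, and *TRNAU1AP* at the end of *SNHG12* gave -0.17 ± 0.12 (adjusted p = 0.207). The other 6 host RNAs have no such overlap in RefSeq, and *SNHG5*, *SNHG8*, *SNHG15* and *ZFAS1* among them rose in all 3 treatments with TMM scaling.

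Other snoRNA hosts were followed as lists for comparison. Of 23 further long noncoding RNAs named as snoRNA hosts, 17 were tested. With lapatinib + THZ531, 9 rose, 1 fell and 7 did not pass, where 34.3% of all tested genes rose and 37.8% fell. The median log2 FC was 0.29. When scaled to mitochondrial mRNAs, 4 rose, 5 fell and the median was -0.37. *SNHG20* (1.80 ± 0.17), *SNHG9* (1.56 ± 0.19) and *SNHG19* (1.27 ± 0.12) rose most, and *SNHG17* fell (-0.20 ± 0.08, adjusted p = 0.0286). *SNHG20*, like *SNHG10*, *SNHG21* and *SNHG22* of the 23 listed, holds 0 genes classed as snoRNA within its RefSeq span. Only that class was counted. Guide RNAs annotated under another class were not looked for, so whether these genes carry any was not tested.

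Of 25 tested hosts that encode ribosomal proteins or translation factors, 24 rose and 1 fell in each of the 3 treatments. The medians were 0.81, 0.70 and 0.68. Of all tested genes, 34.3%, 33.7% and 33.1% rose and 37.8%, 37.3% and 36.8% fell. When scaled to mitochondrial mRNAs, 0 of the 25 rose and 1 fell in each treatment (medians 0.13, 0.09 and 0.15). *RPL21* (0.93 ± 0.10), *RPL17* (0.92 ± 0.12) and *RPL3* (0.90 ± 0.08), all proteins of the large subunit, led the list with lapatinib + THZ531. *EIF4A2*, an RNA helicase of translation initiation, was the one that fell (-0.44 ± 0.09). Among all 78 tested ribosomal protein genes, 76 rose in each treatment with a median of 0.84, 0.72 and 0.69, and 1 rose and 1 fell in each when scaled to mitochondrial mRNAs. The medians of the 10 host RNAs beside these were 0.83, 0.55 and 0.51.

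Of 15 other coding hosts, 6 rose, 6 fell and 3 did not pass with lapatinib + THZ531 (median 0.10). That was close to the shares of all tested genes, 34.3% that rose and 37.8% that fell. When scaled to mitochondrial mRNAs, 1 rose and 9 fell, with a median of -0.59. *TAF1D* (1.05 ± 0.08), a subunit of the RNA polymerase I selectivity factor, *NOP56* (0.97 ± 0.08) and *TOMM20* (0.72 ± 0.07) rose most. *GNL3*, the nucleolar protein nucleostemin, fell by 1.74, *PPAN* by 1.10 and *WDR43* by 0.81 on the log2 scale. *CHD4*, also among the 15, holds 0 genes classed as snoRNA within its RefSeq span, and guide RNAs of another class were not looked for there either.

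**Figure D3:**
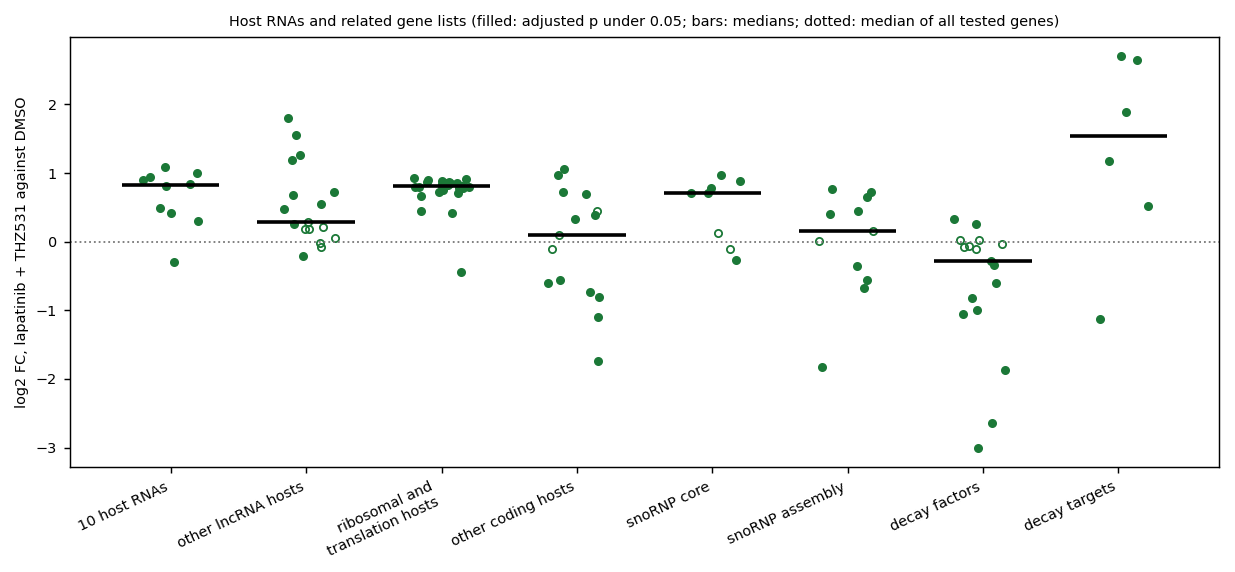
Log2 FC (TMM scaling) with lapatinib + THZ531 against DMSO for the 10 host RNAs and 7 related gene lists, 1 point per gene, filled where the adjusted p is under 0.05. Bars are list medians (0.83 for the 10 host RNAs, 0.81 for ribosomal and translation hosts, 0.29 for other long noncoding hosts, -0.28 for decay factors) and the dotted line is the median of all tested genes.

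The mRNAs of the proteins that package snoRNAs were measured as well. Of the mRNAs of the 8 core proteins of snoRNA particles, 5 rose and 1 fell with lapatinib + THZ531, where 34.3% of all tested genes rose and 37.8% fell. Those that rose included *NOP56*, *FBL* (0.89 ± 0.07), which is the methyltransferase of box C/D particles, and *SNU13* (0.78 ± 0.08). With mitochondrial mRNA scaling, 0 rose and 3 fell. *GAR1* of the H/ACA particles fell (-0.26 ± 0.07, adjusted p = 0.00274). Of the mRNAs of 11 tested assembly factors, 5 rose and 4 fell with lapatinib + THZ531, beside the same 34.3% and 37.8% of all tested genes. When scaled to mitochondrial mRNAs, 0 rose and 6 fell. *NAF1* (0.77 ± 0.10), *PIH1D1* (0.72 ± 0.10) and *NOLC1* (0.65 ± 0.12, or -0.03 under that scaling) were highest, and *COIL*, the Cajal body protein coilin, fell by 1.82, *SHQ1* by 0.68 and *ZNHIT6* by 0.56 on the log2 scale.

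The mRNAs of nonsense-mediated decay factors mostly fell or did not pass. With lapatinib + THZ531, 9 of 17 fell, 2 rose and 6 did not pass (median -0.28), where 37.8% of all tested genes fell. With nilotinib + THZ531 and 1.0 μM THZ531, 10 and 8 fell, where 37.3% and 36.8% of all tested genes did. Scaled to mitochondrial mRNAs, 17, 16 and 15 fell and 0 rose in these 3 treatments. The medians were -0.96, -0.89 and -0.64, where those of all tested genes were -0.69, -0.63 and -0.55. With library size alone, 15 fell and 0 rose in the first, with a median of -0.61 against -0.34 over all tested genes. The share of all tested genes that fell is not given for either scaling, so these counts have no background. *SMG9*, a subunit of the SMG1 kinase complex, fell by 3.00, the helicase *DHX34* by 2.64 and *PNRC2* by 1.86 on the log2 scale with lapatinib + THZ531, while *UPF3A* (0.26 ± 0.07, adjusted p = 0.00277) rose, although it fell when scaled to mitochondrial mRNAs (-0.42). Of 6 mRNAs known as targets of this decay, 5 rose and 1 fell with lapatinib + THZ531, where 34.3% of all tested genes rose and 37.8% fell. *ATF3* (2.70 ± 0.15), *GADD45B* (2.65 ± 0.14) and *GADD45A* (1.89 ± 0.13) were highest and *DDIT3* was lower (-1.13 ± 0.26). The part of decay in the host RNAs' levels was not tested.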

How the data were processed

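Raw counts for each gene, as deposited by the authors without normalization, were used for 21 unstranded polyA-selected libraries. Per the labels, paired-end reads were aligned to GRCh38 with HISAT2 2.1.0 and counted with featureCounts. The annotation and the counting of pairs are not given in the sources used here, and 61.6 to 66.4% of the counts from 1 to 20 in a library were even. Columns were mapped to samples by name, and 0 were unused. NCBI gene identifiers were matched to RefSeq symbols for 27745 of 28395 genes.

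Counts were filtered with filterByExpr, scaled by TMM and fitted with edgeR 4.0.16 in R 4.3.3 (quasi-likelihood test, 1 mean for each of 7 groups, all 21 libraries). P-values were adjusted by Benjamini-Hochberg over 16036 genes and called under 0.05. CPM are TMM-scaled, except for the cell line markers, which were divided by the library total, ± in log2 FC is the SE, and intervals are 95%. Scripts were tested on simulated data.

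The 10 members, the gene lists and the tests were chosen with earlier results of these data known. Named genes were the members, tested snoRNA genes inside them, up to 3 called rises and 3 called falls with the largest log2 FC per list with lapatinib + THZ531, and the 5 genes of most similar group means. The cell line markers were added later. Alternatives were RLE, library size, upper-quartile and mitochondrial mRNA scaling, other filters, DESeq2 1.42.0, a fit of only the groups compared, a replicate block, halved counts, a log2 FC beyond 1 and leaving out each library. Promoter motifs came from RefSeq (GRCh38.p14) and host exons from GENCODE v44. A gene that the rule for named genes covers is not reported here.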

Additional observations from a re-analysis of the deposited data

Results flagged for a closer look

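The results below were marked because the response to a kinase inhibitor differed with and without 0.1 μM THZ531, by the edgeR interaction term with an adjusted p under 0.05. With lapatinib the term was 0.37 ± 0.09 for *SNHG1* (log2 scale, ± SE), 0.76 ± 0.17 for *SNHG5*, 0.87 ± 0.13 for *SNHG6* and 0.54 ± 0.17 for *SNHG7*. It was 0.72 ± 0.16 for *SNHG8*, 1.06 ± 0.20 for *SNHG12*, 0.59 ± 0.14 for *SNHG15*, 0.68 ± 0.17 for *ZFAS1* and -0.33 ± 0.12 for *SNHG16*. The adjusted p-values ran from 1.04e-05 (*SNHG6*) to 0.0208 (*SNHG16*).

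With nilotinib the term was 0.30 ± 0.09 for *SNHG1*, 0.43 ± 0.17 for *SNHG5*, 0.69 ± 0.13 for *SNHG6* and 0.42 ± 0.16 for *SNHG8*. It was 0.89 ± 0.20 for *SNHG12*, 0.44 ± 0.17 for *ZFAS1* and -0.45 ± 0.12 for *SNHG16*, with adjusted p-values from 0.000172 (*SNHG6*) to 0.0372 (*SNHG5*). Both sets of terms share the DMSO and 0.1 μM THZ531 libraries.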

How the results depend on the processing

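The counts of host RNAs called were within 1.5 times of those reported in every comparison under RLE scaling, no filter, at least 10 counts in every library, halved counts and the replicate block. With mitochondrial mRNA scaling, 1 rose and 2 fell with lapatinib + THZ531 against DMSO, 0 and 4 with nilotinib + THZ531, and 1 and 3 with 1.0 μM THZ531. Against 0.1 μM THZ531 that scaling gave 0 higher and 2 lower for 1.0 μM THZ531, 0 higher for lapatinib + THZ531, and 0 higher and 4 lower for nilotinib + THZ531. It gave 0 calls for either combination against 1.0 μM THZ531, 0 between the combinations, and 0 positive terms for both interactions. With library size alone, 2 fell with nilotinib + THZ531 and 2 with 1.0 μM THZ531 against DMSO, 4 were higher with 1.0 μM THZ531 and 4 with nilotinib + THZ531 than with 0.1 μM THZ531, and 5 and 2 interaction terms with lapatinib and nilotinib were positive. With upper-quartile scaling *SNHG16* was no longer called, which gave 0 falls for lapatinib + THZ531 against DMSO and against 0.1 μM THZ531 and 0 negative terms with lapatinib. A fit of only the groups compared gave 1 higher for lapatinib + THZ531 against 1.0 μM THZ531, 0 lower for nilotinib + THZ531 against it and 0 between the combinations, where DESeq2 gave 2. A log2 FC beyond 1 left 2 rises and 0 falls with lapatinib + THZ531 against DMSO, 1 positive and 0 negative terms with lapatinib, and 0 in every other comparison.

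The estimate changed sign with mitochondrial mRNA scaling for *GAS5* (-0.26, -0.45 and -0.52 with lapatinib + THZ531, nilotinib + THZ531 and 1.0 μM THZ531), *SNHG1* (-0.38, -0.53 and -0.41), *SNHG7* (-0.19, -0.51 and -0.21), *SNHG8* (-0.092 and -0.11 in the last 2) and *SNHG12* (-0.033 with nilotinib + THZ531). In the interaction with lapatinib it did so for *GAS5* (-0.39), *SNHG1* (-0.18) and *SNHG7* (-0.017), and in that with nilotinib for *SNHG1* (-0.14), *SNHG7* (-0.30), *SNHG8* (-0.012) and *SNHG15* (-0.22). With library size alone it did so for *SNHG1* (-0.021, -0.21 and -0.12), *GAS5* (-0.14 and -0.24 with nilotinib + THZ531 and 1.0 μM THZ531, -0.14 in the lapatinib interaction), *SNHG7* (-0.19 with nilotinib + THZ531, -0.10 in the nilotinib interaction) and *SNHG15* (-0.047 in the nilotinib interaction). With upper-quartile scaling the nilotinib interaction of *GAS5* was 0.10. Leaving out each library in turn, *SNHG7* with nilotinib + THZ531 ranged from -0.00586 (without DMSO replicate 1) to 0.251, and *GAS5* with 1.0 μM THZ531 from -0.0491 (without 1.0 μM THZ531 replicate 3) to 0.0745, also below 0 without DMSO replicate 1 or 2. The nilotinib interaction of *GAS5* ranged from -0.167 to 0.0410 (without nilotinib replicate 1) and was also above 0 without nilotinib + THZ531 replicate 3. The cause of these changes was not tested, except that each scaling shifts all genes of a comparison together.

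When each library was left out in turn, the rises against DMSO numbered 9 to 9 with lapatinib + THZ531, 6 to 7 with nilotinib + THZ531 and 6 to 8 with 1.0 μM THZ531, each with 1 fall. The number higher than with 0.1 μM THZ531 was 7 to 8 for 1.0 μM THZ531, 9 to 9 for lapatinib + THZ531 and 7 to 8 for nilotinib + THZ531. Against 1.0 μM THZ531, 2 to 3 were higher with lapatinib + THZ531 and 0 to 1 lower with nilotinib + THZ531, and 0 to 2 were higher with the lapatinib than with the nilotinib combination. Positive interaction terms numbered 8 to 8 with lapatinib and 3 to 7 with nilotinib.

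Replicate numbers were not used to pair the samples in the main fit. Of 63 pairs of libraries with the same number in different groups, 35 had a correlation of deviations over 0.1 (mean 0.115, from -0.718 to 0.806, over 10913 genes). The mean was -0.0541 for pairs with different numbers, and 8 of 21 libraries correlated best with their own number. These values do not settle whether libraries of the same number share an experiment. With the replicate block, the counts against DMSO were 9 rises and 1 fall, 6 and 1, and 7 and 1. Counts were lowest for *SNHG12* (216 to 452 per library), *SNHG7* (251 to 362) and the snoRNA genes, whose estimates are the least precise.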
